A study of Mus musculus with 7 samples.

Results

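The genes described here are 5 markers of Schwann cells, the glia that ensheathe peripheral axons (Sox10, Mbp, Erbb3, S100b and Ngfr), and 3 neuronal genes (Snap25, Stmn2 and Tubb3). They were chosen by symbol, and they are 8 of the 31531 genes in the deposited table of normalized counts. The table holds 4 wt and 3 dyW libraries of muscle fibers from mouse fetuses at embryonic day 17.5 (E17.5), on a C57BL/6 background. The dyW allele disrupts Lama2, the gene of the laminin α2 chain of the muscle basement membrane, and the homozygous dyW fetuses and their wt counterparts came from crosses of heterozygous parents. Epaxial muscles, which lie along the back, were digested with dispase and collagenase, the fibers kept by a strainer were lysed, and full-length cDNA was made and amplified by the SMART-seq2 protocol, which has no molecular identifiers. Nothing in the collection selected fibers by a marker, so other cells that stay attached to fibers could enter a library.

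Schwann cells come from the neural crest and travel with the growing nerves into limb and trunk muscle, where some form myelin and others cover the nerve terminals. Their survival and migration depend on neuregulin from axons, which they sense through the receptor pair Erbb2 and Erbb3. Motor axons in the same nerves carry mRNA of their own, but most mRNA of a neuron lies in its cell body, in the spinal cord or a ganglion and outside the muscle. Schwann cells thus lie within the muscle, whereas the cell body of a motor neuron is not.

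A normalized count is the number of reads on a gene divided by a size factor of its library, and every value was a whole multiple of the worth of 1 read. This worth was 2.05 to 5.33 normalized counts in the wt libraries and 0.0974 to 0.488 in the libraries labelled dyW, so that the same normalized count rests on more reads in the second group. Between 470804 and 2220813 reads were counted on genes in the wt libraries, against 3663905 to 18297106 in those labelled dyW. Between 25530 and 29594 genes had a read in the wt libraries, against 14209 to 19360 in the others. Lama2 gave a check of the labels, with normalized counts of 90.6, 111, 105 and 107 in wt1 to wt4, and 4.29 in dyW1 and 6.07 in dyW2. In the third library of the mutant group it was 139.7, above every wt library, which goes against the label, and this one is named the library labelled dyW3. The tissue label was checked with 12 myofiber markers, whose summed normalized count was 2650 to 70177 in wt, 8271 in dyW2 and 4853 in the library labelled dyW3, but 65.8 in dyW1, where Acta1, the skeletal muscle actin, was at 4.09. Limma called 18.7% of 25791 tested genes lower and 0.0659% higher in the libraries labelled dyW, where called means a Benjamini-Hochberg adjusted P-value under 0.01 and an absolute log2 fold change over 1.5. At an adjusted P-value under 0.05, 7625 genes (29.6%) passed as lower and 259 as higher. Lower genes were thus 96.7% of the 7884 that passed with the deposited scaling, 79.7% of the 5613 that passed once library totals were made equal and 82.8% of the 99 that passed under quantile normalization. The median log2 fold change of all tested genes was −1.99, −0.98 and 0.06 with these scalings.

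Of the 8 genes, limma called 1 lower in the libraries labelled dyW, Snap25, beside 18.7% of all tested genes. It called 0 higher, beside 0.0659%. At an unadjusted limma P-value under 0.05, 3 of the 8 were lower, beside 41.5% of all tested genes, and 0 higher. Limma's voom on the recovered reads called 1 of the 8 lower, beside 23.6% of all tested genes, and 0 higher. A negative log2 fold change was found for 7 of the 8, beside 79.6% of all tested genes. Every wt library lay above every library labelled dyW for 2 of the 8 (S100b and Snap25), beside 31.5% of all tested genes. The median log2 fold change was −2.41 over the 8 genes and −2.50 over the 5 Schwann cell genes. Over the 8 genes it was −1.73 with equal totals and −0.78 with quantile normalization. It was −3.56 without the library labelled dyW3 (all genes −2.54), and −1.67 without dyW1, where all genes had −2.10. Stmn2 was the exception in direction, with a log2 fold change of 0.10. Without the library labelled dyW3, 3 of the 8 genes were called lower (Erbb3, Snap25 and Tubb3), beside 25.8% of all tested genes, and the groups did not overlap for 5 of the 8, beside 45.1%. Without dyW1, 1 of the 8 was called lower, beside 7.76%, and the groups did not overlap for 2, beside 39.1%. In bulk libraries such as these, fewer Schwann cells or axons and less RNA per cell cannot be told apart.

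**Figure D1:**
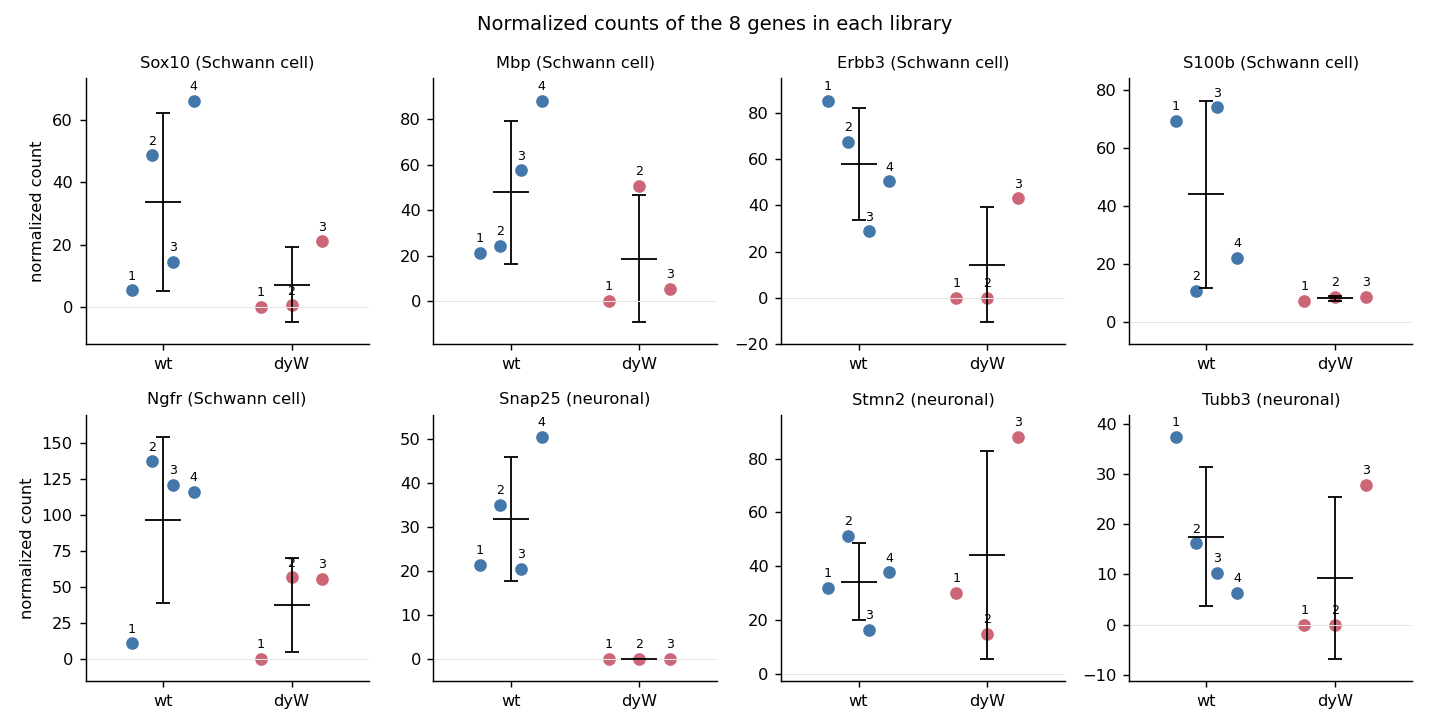
Normalized counts (vertical axes, a separate linear scale for each gene) of the 8 genes in the wt libraries (blue) and the libraries labelled dyW (red), where each point is 1 library with its replicate number, the horizontal bar is the mean and the whiskers are the SD. Snap25 was at 0 in every library labelled dyW, Erbb3 and Tubb3 were at 0 in dyW1 and dyW2 only, and Stmn2 was highest in the library labelled dyW3.

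The 5' ends of 3 of the 8 genes were taken from the RefSeq promoter table for GRCm38.p6, and they are shown as the windows this table holds. Sox10, Erbb3, Snap25 and Stmn2 had no entry. Mbp was left out of this search, so whether the table holds it was not tested. The last 100 bases before the annotated start are printed on the strand of the gene, at chr11:95587699-95587798 on the minus strand for Ngfr, chr10:76253736-76253835 on the plus strand for S100b and chr8:123411453-123411552 on the plus strand for Tubb3.
Ngfr: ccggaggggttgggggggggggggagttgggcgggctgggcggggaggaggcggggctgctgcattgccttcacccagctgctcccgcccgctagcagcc
S100b: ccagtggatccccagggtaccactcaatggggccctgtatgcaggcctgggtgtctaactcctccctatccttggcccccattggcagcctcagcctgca
Tubb3: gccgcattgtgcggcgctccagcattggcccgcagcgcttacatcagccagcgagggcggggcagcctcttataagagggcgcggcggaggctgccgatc
The 250 bases before the start were 70.4% G or C for Ngfr, 68.0% for Tubb3 and 53.6% for S100b. They were searched on both strands for ACAAAG, the core of sites bound by Sox proteins, and for TATAAA, a form of the TATA box. Neither was found in these 3 windows (so no base is in capitals). Only these exact letters were searched, and TATAAG, which the printed Tubb3 bases hold, was not counted. Over all 32851 windows of the table, 16.5% held ACAAAG and 12.4% held TATAAA.

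Sox10, the transcription factor that specifies Schwann cells and keeps their identity, is a minus-strand gene of chromosome 15 (79039108 to 79049469, in GRCm39 coordinates as for all genes below). Its normalized counts were 5.33, 48.5, 14.4 and 66.1 in wt1 to wt4, and 0, 0.506 and 21.0 in dyW1, dyW2 and the library labelled dyW3. The groups overlapped, since the library labelled dyW3 lay above wt1 and wt3, and only 1 read stood behind the value of wt1. The mean was 33.6 ± 28.6 (SD, n = 4) for wt, against 7.17 ± 12.0 (SD, n = 3) for the group labelled dyW, with a log2 fold change of −2.89 (SE 1.29) that was not called by limma (adjusted P-value 0.116), and an exact two-sided permutation test gave P = 0.286. All exact tests here compare normalized counts over the 35 splits of 7 libraries, which cannot give less than 0.0571. Without the library labelled dyW3, wt and dyW no longer overlapped and the log2 fold change became −4.28 (limma adjusted P-value 0.0102). Without dyW1 it was −2.05, and with quantile normalization −0.71 (limma adjusted P-values of 0.277 and 0.833).

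Erbb3, the neuregulin receptor that Schwann cell precursors need, lies on chromosome 10 from 128403392 to 128425811 on the minus strand. In normalized counts it was at 85.3, 67.4, 28.7 and 50.3 in wt1 to wt4, and 0, 0 and 43.0 in dyW1, dyW2 and the library labelled dyW3. Both values of 0 came from the deepest libraries, with 14363788 and 18297106 reads on genes, whereas 88 reads were counted in the library labelled dyW3 and 14 to 25 in each wt library. The mean was 57.9 ± 24.2 (SD, n = 4) for wt, against 14.3 ± 24.8 (SD, n = 3) for the group labelled dyW (log2 fold change −3.96, SE 1.33, limma adjusted P-value 0.0517), and the exact permutation test gave P = 0.114. This gene was not called over all 7 libraries, and it was called without the library labelled dyW3, where the log2 fold change was −5.78 and the limma adjusted P-value 0.0018. Without dyW1 or dyW2 it was −3.05 (limma adjusted P-values of 0.136 and 0.145). Its partner receptor Erbb2 had normalized counts of 36.9 to 69.3 in wt and 57.7, 0 and 31.7 in dyW1, dyW2 and the library labelled dyW3 (limma adjusted P-value 0.263).

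Ngfr encodes the p75 neurotrophin receptor of immature Schwann cells and some neurons, and lies on chromosome 11 from 95459638 to 95478561 on the minus strand. The values in wt1 to wt4 were 10.7, 138, 121 and 116 normalized counts, against 0, 56.7 and 55.7 in dyW1, dyW2 and the library labelled dyW3. One library in each group stood apart below the others, wt1 with 2 reads and dyW1 with 0, and these were the libraries with the lowest sums of myofiber markers in their groups. The mean was 96.4 ± 57.9 (SD, n = 4) for wt, against 37.4 ± 32.4 (SD, n = 3) for the group labelled dyW, a log2 fold change of −2.22 (SE 1.55) that was not called by limma (adjusted P-value 0.300; exact permutation test, P = 0.171). Without dyW1 the log2 fold change was −0.28, and without wt1 it was −3.08, with limma adjusted P-values of 0.864 and 0.198. The part of myofiber content in these values was not tested.

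S100b encodes a calcium-binding protein that marks Schwann cells and is also made by cartilage cells, and lies on chromosome 10 from 76085090 to 76097159 on the plus strand, where Dip2a on the other strand overlaps it outside the exons. Its normalized counts were 69.3, 10.8, 73.8 and 22.0 in wt1 to wt4, and 7.21, 8.60 and 8.79 in dyW1, dyW2 and the library labelled dyW3. All 4 wt libraries exceeded all 3 libraries labelled dyW, but wt2 rested on 4 reads and its distance to the highest of the other group was less than the worth of 1 read in wt2. The mean was 44.0 ± 32.2 (SD, n = 4) for wt, against 8.20 ± 0.862 (SD, n = 3) for the group labelled dyW, with a log2 fold change of −1.91 (SE 0.835) that was not called by limma (adjusted P-value 0.110), and the exact permutation test gave its smallest possible value, P = 0.0571. In RPM, the reads on a gene per 1000000 reads counted in its library, the values were 27.6, 2.71, 16.2 and 3.97 in wt and 5.15, 3.72 and 4.91 in the libraries labelled dyW, and the groups overlapped. On that scale 1 of the 8 genes, Snap25, kept every wt library above every library labelled dyW, beside 23.2% of all tested genes. The wt libraries with the highest S100b, wt1 and wt3, also had the highest sums of 11 cartilage markers, 489935 and 27239 normalized counts against 321 in wt2 and 3625 in wt4, and the part of cartilage in the S100b values was not tested.

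Mbp, which encodes myelin basic protein, lies on chromosome 18 from 82493207 to 82603763 on the plus strand, where exons of Gm58827 on the other strand overlap it. Normalized counts of Mbp were 21.3, 24.3, 57.4 and 88.1 in wt1 to wt4, and 0.195, 50.8 and 5.37 in dyW1, dyW2 and the library labelled dyW3. The value of dyW2 rested on 402 reads and lay among the wt values, while dyW1 had 2 reads. The mean was 47.8 ± 31.5 (SD, n = 4) for wt, against 18.8 ± 27.9 (SD, n = 3) for the group labelled dyW (log2 fold change −2.50, SE 1.23, limma adjusted P-value 0.153; exact permutation test, P = 0.286), a difference smaller than the SD of wt and larger than that of the other group. Without dyW2 the log2 fold change was −3.91, and without dyW1 it was −1.19, with limma adjusted P-values of 0.0265 and 0.408.

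Snap25 encodes a membrane protein of the complex that fuses synaptic vesicles with the nerve terminal, and lies on chromosome 2 from 136533580 to 136624362 on the plus strand, where exons of Gm32659 on the other strand overlap it. Its normalized counts were 21.3, 35.1, 20.5 and 50.3 in wt1 to wt4, and it had no read in dyW1, dyW2 or the library labelled dyW3. In reads, 43 of the 5929584 counted in wt were on Snap25, and 0 of the 36324799 counted in the libraries labelled dyW. Snap25 fell by 4.94 on the log2 scale of normalized count + 1 (SE 0.684, limma adjusted P-value 0.0037), a value that depends on the added 1. A count of 0 allows up to 3 reads, which is 0.712 normalized counts as a mean over the libraries labelled dyW. The wt mean was 31.8 ± 14.0 (SD, n = 4). With this mean taken as exact, and with the deposited scaling, Snap25 was at least 44.7-fold lower in the libraries labelled dyW. Leaving out single libraries gave bounds from 34.5-fold (without dyW1) to 94.7-fold (without the library labelled dyW3). In RPM, the same limit of 3 reads made it at least 19.4-fold lower. The exact permutation test gave its smallest possible value, P = 0.0571.

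The call of Snap25 stood beside 17.5% of all tested genes that had no read in any library labelled dyW, and beside 14.6% called lower among the genes in the range of mean normalized counts spanned by the 8. Its wt level was compared, per kb of exon, with that of 1388 odorant and vomeronasal receptor genes, a family known for its use in sensory neurons of the nose. Snap25 had 0.517 to 0.856 times the median reads per kb of these receptor genes when all annotated exons were counted, below it in 4 of 4 wt libraries, and 2.14 to 3.54 times with the canonical transcript length. The receptor median itself was 0.631 to 2.51 reads per kb in the wt libraries, 0 in dyW1 and dyW2, and 1.84 in the library labelled dyW3. Their part in the Snap25 result was not tested. The call was lost without wt2, wt4 or dyW2, where the log2 fold changes were −4.86, −4.69 and −4.94 (limma adjusted P-values of 0.0127, 0.0121 and 0.0141), and with library totals made equal (−4.62, limma adjusted P-value 0.0193). It was also lost with replicate number as a block (−4.69), with 10 added in place of 1 (−2.01) and with quantile normalization (−2.29). The limma adjusted P-values of these were 0.0614, 0.0318 and 0.249.

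Tubb3, the neuronal β-tubulin of growing axons, lies on chromosome 8 from 124138163 to 124150092 on the plus strand. Normalized counts of Tubb3 were 37.3, 16.2, 10.3 and 6.29 in wt1 to wt4, and 0, 0 and 27.8 in dyW1, dyW2 and the library labelled dyW3. As with Erbb3, the reads in the group labelled dyW, 57 in all, came from a single library, and this pattern was held by 15.4% of all tested genes. The mean was 17.5 ± 13.8 (SD, n = 4) for wt, against 9.28 ± 16.1 (SD, n = 3) for the group labelled dyW (log2 fold change −2.31, SE 1.28, limma adjusted P-value 0.198; exact permutation test, P = 0.571). Without the library labelled dyW3 it was called, with a log2 fold change of −3.93 and a limma adjusted P-value of 0.00658. Without dyW1 or dyW2 it was −1.51 (limma adjusted P-values of 0.427 and 0.450), and quantile normalization of all 7 libraries gave a log2 fold change of 0.32.

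Stmn2, a tubulin-binding protein of growth cones, lies on chromosome 3 from 8574151 to 8626667 on the plus strand. Its levels were 32.0, 51.2, 16.4 and 37.8 normalized counts in wt1 to wt4, and 30.1, 14.8 and 87.9 in dyW1, dyW2 and the library labelled dyW3. It was the only 1 of the 3 neuronal genes with reads in every library, and 117 to 309 reads stood behind each value of the group labelled dyW against 6 to 19 in wt. The mean was 34.3 ± 14.4 (SD, n = 4) for wt, against 44.3 ± 38.6 (SD, n = 3) for the group labelled dyW, with a log2 fold change of 0.10 (SE 0.786, limma adjusted P-value 0.933; exact permutation test, P = 0.800). The sign turned without the library labelled dyW3 (−0.57), without wt3 (−0.20) and with voom (−0.22), and it was 1.22 with equal totals and 1.08 with quantile normalization. None of these values was called. In RPM, Stmn2 was at 12.7, 12.9, 3.60 and 6.81 in wt and at 21.5, 6.39 and 49.1 in the libraries labelled dyW.

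**Figure D2:**
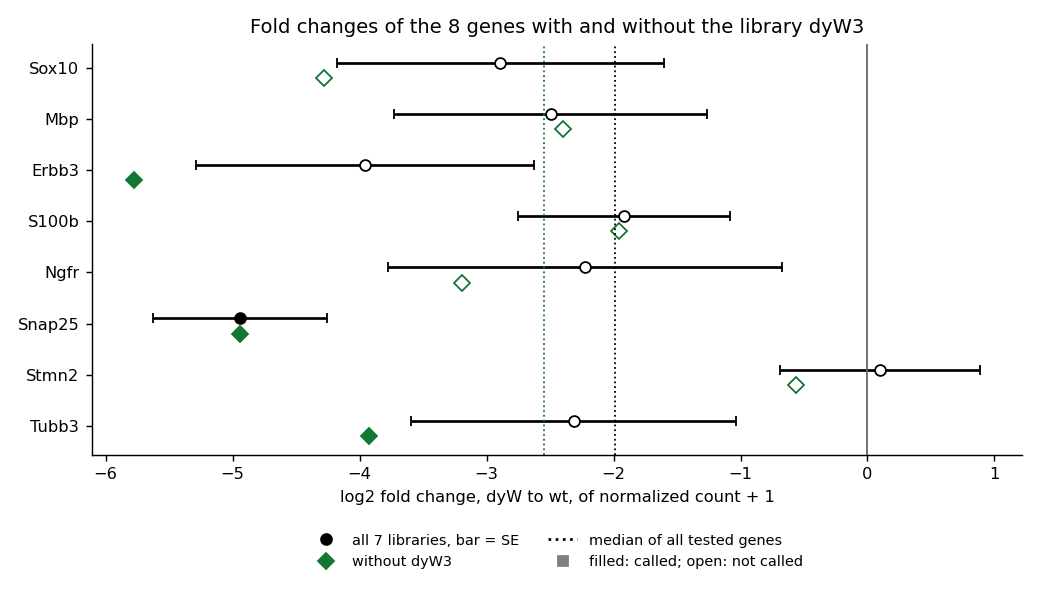
Log2 fold change of normalized count + 1, dyW to wt (horizontal axis), for the 8 genes (vertical axis) over all 7 libraries (circles, bars are SE) and without the library labelled dyW3 (diamonds), where filled symbols were called by limma and dotted lines are the medians of all tested genes in the same fit. Snap25 was called in both fits, Erbb3 and Tubb3 only without that library, and Stmn2 lay at 0.10 and −0.57.

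Levels of different genes were compared as normalized counts per kb, and the order depended on the length used. With all annotated exons, the order in wt was Ngfr with 27.9 ± 16.8 (SD, n = 4), S100b with 22.0 ± 16.1, Sox10 with 10.1 ± 8.57, Erbb3 with 9.19 ± 3.83, Stmn2 with 5.94 ± 2.49, Tubb3 with 5.46 ± 4.30, Mbp with 4.90 ± 3.23 and Snap25 with 3.18 ± 1.40. With the length of the canonical transcript, Mbp moved to 22.2 ± 14.6, Stmn2 to 16.1 ± 6.74 and Snap25 to 13.9 ± 6.14, above Sox10 with 12.3 ± 10.5. Erbb3 with 9.61 ± 4.00 and Tubb3 with 5.46 ± 4.31 were then lowest, and Ngfr and S100b stayed highest. In both orders, no neighbours differed by more than the larger of their SDs. In the libraries labelled dyW, Ngfr had 10.8 ± 9.39 (SD, n = 3) and Stmn2 7.66 ± 6.67 per kb of all exons. They had 10.9 ± 9.41 and 20.7 ± 18.0 per kb of canonical transcript, so the order turned with the length.

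The 8 genes did not follow 1 pattern over the libraries. On log2(normalized count + 1) over the 7 libraries, which share their size factors and their split into groups, the highest Pearson correlations among the 28 pairs were 0.948 for Erbb3 and Tubb3, 0.855 for Sox10 and Erbb3 and 0.822 for Mbp and Ngfr, whereas Mbp and Stmn2 gave −0.37. Among 6074 genes averaging at least 50 normalized counts, the genes most like Ngfr were Mylpf (0.985) and Des (0.984), which encode a fast myosin light chain and the muscle intermediate filament desmin. S100b was close to Cnmd (0.973), a cartilage gene with normalized counts of 16447 in wt1 and 15442 in wt3 and under 160 in each other library. Erbb3 was most like Lgr5 (0.998) and Vmn1r6 (0.997), a vomeronasal receptor gene with 43.1 to 94.4 normalized counts in wt, 0 in dyW1 and dyW2 and 70.3 in the library labelled dyW3.

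Odorant receptor genes were also among those most like the neuronal genes. Olfr466 and Gm32061 (both 0.983) were closest to Tubb3, and Olfr1336 (0.989) was close to Snap25. Olfr1336 had 84.1 to 205 normalized counts in wt and 0 in every library labelled dyW. Stmn2 was most like Akap13 (0.977) and Hsf2 (0.969), Sox10 most like Gm14461 (0.959) and St8sia4 (0.955), and Mbp most like Kxd1 (0.977) and Rpl13a-ps1 (0.960). Reads of receptor genes and of pseudogenes such as Rpl13a-ps1 are uncertain, since near-identical copies can share them.

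The other genes of Schwann cells and nerves were taken from 6 lists, of which 107 genes were in the table and 101 were tested. Of these, 17 were called lower (16.8%, beside 18.7% of all tested genes) and 0 higher by limma. At an unadjusted P-value under 0.05, 45 of the 101 were lower, beside 41.5% of all tested genes, and 1 was higher. Voom called 21 lower, beside 23.6%, and 0 higher. Without the library labelled dyW3, 32 of 103 tested were called lower, beside 25.8% of all tested genes. Without dyW1 it was 14 of 103, beside 7.76%, and without wt2, wt4 or dyW2 it was 0, as over all genes. The medians of the lists, given next with the deposited scaling, moved with the scaling. That of the Schwann cell lineage turned sign, to 0.20 with equal totals and 0.43 with quantile normalization, and that of motor and sensory neuron identity went from −3.07 to −2.51 and −0.49.

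Among 18 tested genes of the Schwann cell lineage, the median log2 fold change was −0.70, above the −1.99 of all tested genes. Of the 18, 1 was called lower (5.56%, beside 18.7% of all tested genes). This gene was Itgb4, the integrin β4 subunit through which Schwann cells bind laminin, with normalized counts of 128, 59.3, 16.4 and 91.3 in wt1 to wt4 and 2.14, 0.126 and 0 in dyW1, dyW2 and the library labelled dyW3 (log2 fold change −5.29, SE 0.904, limma adjusted P-value 0.00398). Itgb4 is shared with epithelia, so it does not mark Schwann cells alone. The 2 genes of the list with the highest mean per kb were not called. Ncam1, an adhesion molecule also of muscle, had 101 ± 39.6 in wt and 166 ± 65.6 in the libraries labelled dyW (limma adjusted P-value 0.402), and Egr2, the transcription factor of myelination, was at 21.3 to 31.5 in wt and at 243, 3.54 and 2.44 in dyW1, dyW2 and the library labelled dyW3 (limma adjusted P-value 0.726).

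Among 14 peripheral myelin genes, the median log2 fold change was −2.10, beside −1.99 for all tested genes. Of the 14, 2 were called lower (14.3%, beside 18.7% of all tested genes). Ugt8a, the enzyme that makes galactocerebroside, was at 15.7 to 32.4 in wt and without a read in any library labelled dyW (log2 fold change −4.77, limma adjusted P-value 0.00372). Prx, the periaxin of myelinating Schwann cells, was at 20.5 to 26.7 in wt and at 4.19, 1.01 and 0 in dyW1, dyW2 and the library labelled dyW3 (log2 fold change −3.52, limma adjusted P-value 0.00822). Pmp22, a membrane protein of myelin that fibroblasts also express, had the highest mean per kb and was not called (limma adjusted P-value 0.300). It was at 157 to 379 in wt and at 164, 888 and 938 in dyW1, dyW2 and the library labelled dyW3.

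Among 18 tested genes of neuregulin and neurotrophin signalling, 1 was called lower (5.56%, beside 18.7% of all tested genes). This was Gdnf, a trophic factor of motor neurons, at 4.10 to 25.2 normalized counts in wt and without a read in the libraries labelled dyW (log2 fold change −3.40, limma adjusted P-value 0.00863). The wt values of Gdnf rest on 1 to 8 reads in each library. The median of this list was −2.74, and Adam17 and Erbb2, which had its highest means per kb, were not called.

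The 3 neuronal lists held 13 of the 17 calls, in 51 of the 101 tested genes (25.5% of them, beside 18.7% of all tested genes). The Schwann cell, myelin and signalling lists held the other 4, in 50 tested genes (8%). The difference between lists was not tested. Of 19 tested genes of synaptic vesicle release, 6 were called lower (Sv2b, Vamp1, Syt2, Sv2a, Syp and Cplx1), with log2 fold changes from −5.18 to −4.07 and a median of −2.69 over the list. Sv2b, a vesicle glycoprotein, was at 28.7 to 59.3 in wt and at 0, 0 and 0.977 in the libraries labelled dyW (limma adjusted P-value 0.00372). Vamp1, the vesicle partner of Snap25 in motor terminals, was at 20.5 to 81.8 in wt and at 0, 0 and 2.93. Napa and Snap23, which serve membrane fusion in every cell, had the highest means per kb and were not called, at 148 ± 92.9 and 191 ± 151 in the libraries labelled dyW against 147 ± 129 and 94.4 ± 18.4 in wt.

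Of 18 tested genes of the neuronal cytoskeleton and growth cone, 5 were called lower (Crmp1, Kif5c, Tubb4a, Nefl and Ina), and the median was −2.24. Crmp1, a growth cone protein, was at 37.3 to 72.8 in wt and at 0, 0 and 0.488 in the libraries labelled dyW (log2 fold change −5.46, limma adjusted P-value 0.00372), and the kinesin gene Kif5c and the tubulin gene Tubb4a had no read in the latter group. Stmn1, the relative of Stmn2 in dividing cells, was at 21.3 to 482 in wt and 38.7 to 348 in the libraries labelled dyW, and Basp1 at 5.33 to 40.9 and 57.5 to 117, neither of them called (limma adjusted P-values of 0.951 and 0.108). Of 14 tested genes of motor and sensory neuron identity, 2 were called lower (14.3%, beside 18.7% of all tested genes). All 14 had a negative log2 fold change, beside 79.6% of all tested genes, with a median of −3.07 (−3.20 with genes without reads set at their limit). Chat, the enzyme that makes acetylcholine, was at 69.3, 32.4, 10.3 and 66.1 in wt1 to wt4 and without a read in the libraries labelled dyW (log2 fold change −5.19, limma adjusted P-value 0.00374), and Rbfox3, the neuronal splicing factor known as NeuN, was at 10.3 to 59.3 in wt and at 0.877, 0 and 0.

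**Figure D3:**
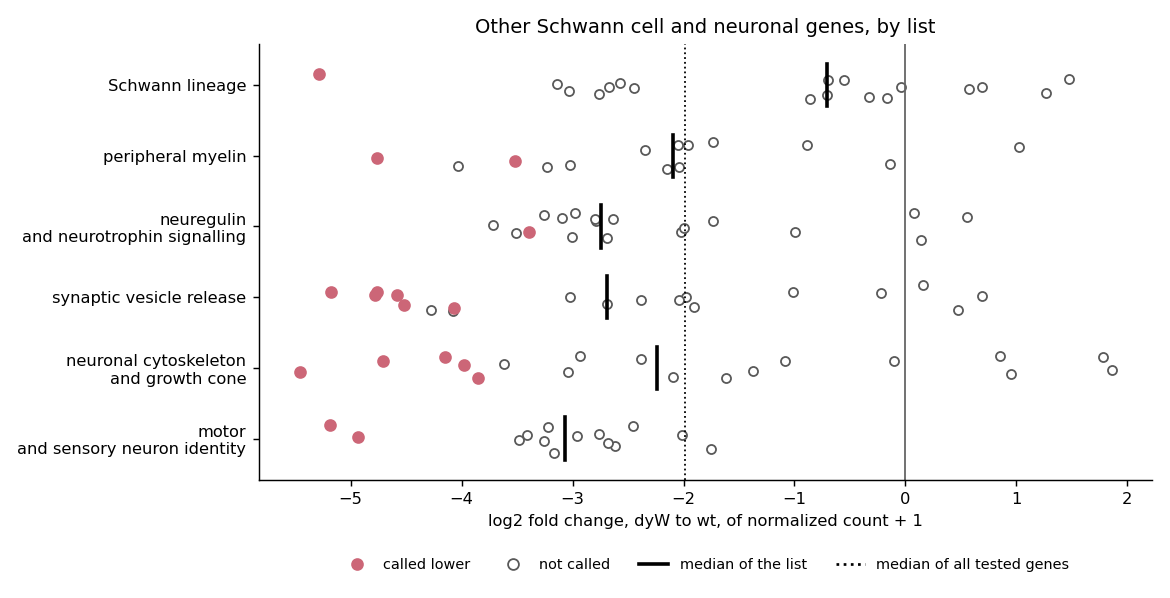
Log2 fold change of normalized count + 1, dyW to wt (horizontal axis), of the 101 tested genes in 6 lists of Schwann cell and neuronal genes (vertical axis, points spread within a list for clarity), with genes called lower by limma filled. The list medians (thick lines) ran from −3.07 for motor and sensory neuron identity to −0.70 for the Schwann cell lineage, beside −1.99 for all tested genes (dotted line).

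Detection of the listed genes was not ordered by depth. Of the 107 genes in the table, 91, 106, 104 and 105 had at least 1 read in wt1 to wt4, against 55, 59 and 65 in dyW1, dyW2 and the library labelled dyW3, which were the more deeply sequenced ones. As shares these were 85.0% to 99.1% in wt and 51.4%, 55.1% and 60.7% in the other group. Among all 31531 genes, the shares with a read were 81.0% to 93.9% in wt and 56.4%, 45.1% and 61.4% in dyW1, dyW2 and the library labelled dyW3. With more than 3 reads required, 59 to 97 genes were detected in the wt libraries and 54 to 59 in those labelled dyW, and wt1 then equalled the highest of the other group. For motor and sensory neuron identity, 11 to 15 of 15 genes had a read in wt and 2 to 6 in the libraries labelled dyW, whereas for the Schwann cell lineage 15 to 19 of 19 had a read in wt and 13 to 15 in the other group. Reads amplified by PCR are not independent molecules, so limits from a count of 0 cover counting error only.

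**Figure D4:**
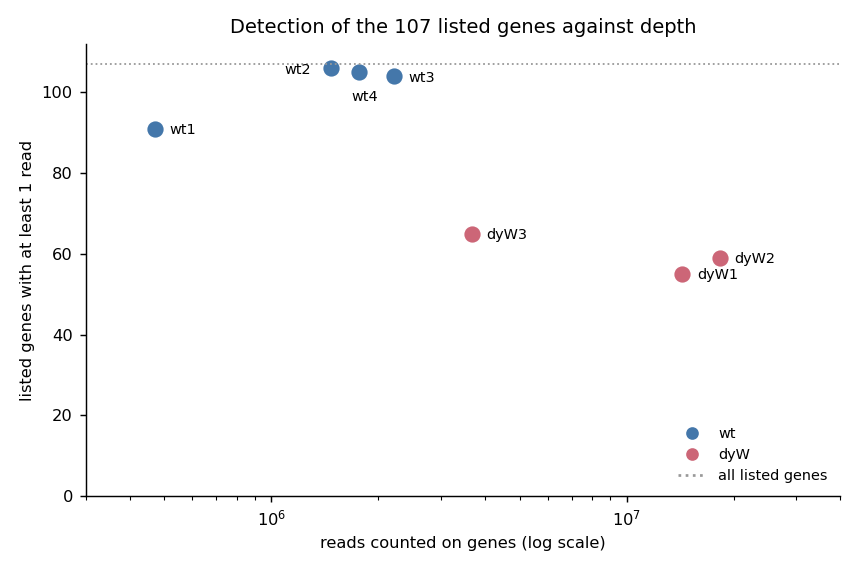
Number of the 107 listed genes with at least 1 read (vertical axis) against the reads counted on genes (horizontal axis, log scale) in each wt library (blue) and each library labelled dyW (red). The 4 wt libraries lie between 91 and 106 genes at 470804 to 2220813 reads, and the 3 libraries labelled dyW between 55 and 65 genes at 3663905 to 18297106 reads.

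Markers of other cell types that share genes with Schwann cells differed between the libraries too, and their part in the values of the 8 genes was not tested. Melanocytes, which also use Sox10 and Erbb3 in development, had 6 markers in the table, whose sum was 86.2 to 230 normalized counts in wt and 1.75, 7.84 and 100 in dyW1, dyW2 and the library labelled dyW3. Of these markers, 2 (Tyrp1 and Pmel) were at 0 in every library labelled dyW, beside 17.5% of all tested genes. In the library labelled dyW3, Dct was also at 0 and Oca2 at 4.88, both below every wt library. Tyr at 28.8 lay among the wt values there, and Mitf at 66.4 lay above its 16.4 to 29.7 in wt. Glia of the central nervous system, which share Sox10, Mbp and S100b, had 8 markers with sums of 73.8 to 245 in wt and 18.1 to 61.5 in the libraries labelled dyW, where 3 markers (S1pr5, Mobp and Opalin) were at 0 throughout. Of the others in the library labelled dyW3, Slc1a2 at 3.42 was below every wt library, Cldn11 at 34.2 above every wt library, and Gfap, Aqp4 and Mog at 9.28, 10.7 and 3.91 among the wt values. The sum of 8 fibroblast markers went the other way, from 4148 to 12730 in wt and from 20525 to 28898 in the libraries labelled dyW. Of the 8, Col1a2 and Pdgfra were above every wt library in every library labelled dyW, and the others were not. In dyW1, Col1a2 (12046) and Col1a1 (8467) stood behind most of the sum of 21970. Col3a1 (232) and Dpt (0) were below every wt library there. Pdgfrb was above every wt library in dyW1 (127) and below them in dyW2 (10.1) and the library labelled dyW3 (0). The 10 housekeeping genes summed to 13477 to 59884 in wt and 6171 to 13809 in the libraries labelled dyW.

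**Figure D5:**
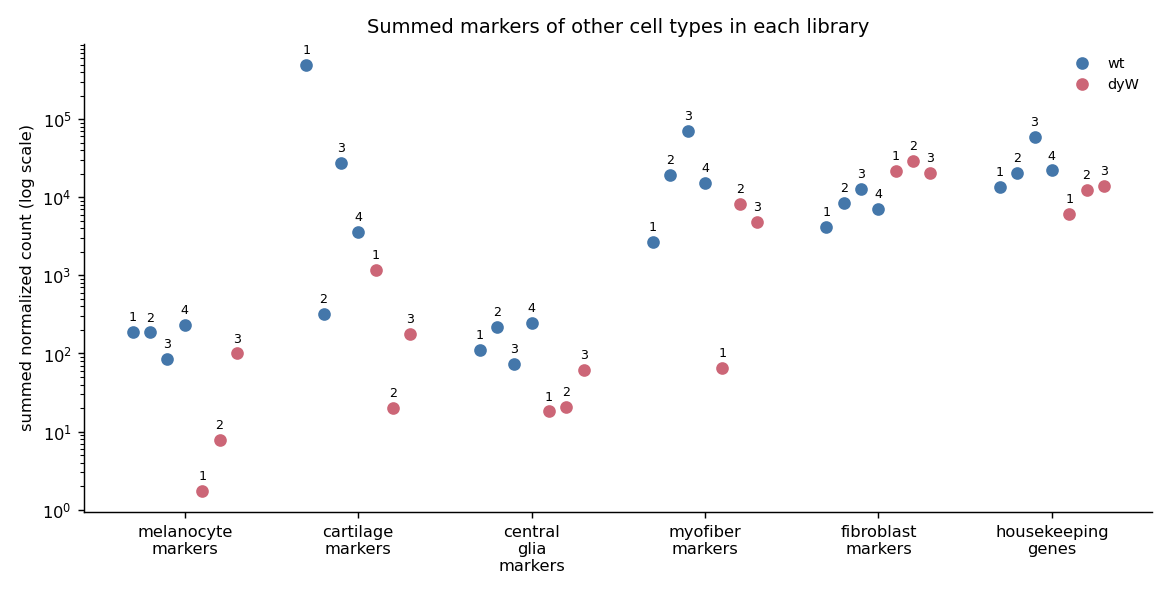
Summed normalized counts (vertical axis, log scale) of 6 lists of markers and housekeeping genes in each wt library (blue) and each library labelled dyW (red), numbered by replicate. The sum of fibroblast markers was higher in all 3 libraries labelled dyW than in any wt library, though not each marker was. The sum of myofiber markers was lowest in dyW1 with 65.8, and that of cartilage markers was highest in wt1 with 489935.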

How the data were processed

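RNA of 4 wt and 3 dyW samples of E17.5 muscle fibers was measured by SMART-seq2 with Nextera XT libraries, and groups follow the genotype in the sample labels. Per the methods and the submitters' processing notes, the authors trimmed reads with cutadapt, aligned them with STAR to GRCm39, counted uniquely mapped reads with FeatureCounts and normalized them with DESeq2. The deposited normalized counts of 31531 genes were used. The authors' table of fold changes and P-values was not used. Versions, annotation release and strand setting are not given in the sources used here, so overlapping and antisense genes cannot be told apart. Each sample description carries a number of its own, but the labels do not say whether it names an animal, and they name no litters. The paper describes the samples of each genotype as independent. P-values measure the spread between these samples, part of which may be technical.

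Each library was divided by the worth of 1 read, and 100% of values were whole within 0.1 read. Genes with a mean of at least 5 (25791) were compared on log2(normalized count + 1) by limma (3.58.1, under R 4.3.3; lmFit, then eBayes with its trend option), adjusting P-values over all of them by Benjamini-Hochberg, and single genes by exact two-sided permutation tests. A fold change on this scale understates that of a low gene. The script was tested on simulated data. Exon lengths (99.2% of genes) and coordinates came from GENCODE on GRCm39. Lists, tests of single genes and figures used scipy 1.17.1, pandas 2.3.3, numpy 2.4.6 and matplotlib 3.10.9 under Python 3.11.15. The genes, the lists and the rule for naming genes (called list members, at most 3 in each direction, and the 2 with the highest mean per kb; the 2 genes most like each of the 8) were chosen with earlier results of these data known; some genes that the rule names are not reported here, and further called genes of the neuronal lists were named after their values were seen. Alternatives were other pseudocounts, filters, scalings and thresholds, a replicate block, each library left out, and, chosen after seeing the data, voom, the RPM scale for the bound of Snap25, and canonical transcript lengths.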

Additional observations from a re-analysis of the deposited data

Results flagged for a closer look

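Among the 8 genes, the 4 wt values of Ngfr included 1 far from the others. Ngfr was at 10.7 normalized counts in wt1, resting on 2 reads, and at 116 to 138 in wt2, wt3 and wt4. The gap between wt1 and the nearest library made up 0.834 of the range of the group, above Dixon's limit for 4 samples, a limit that chance passes in about 1 of 20 groups.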

How the results depend on the processing

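Depth limits the wt values, where 1 read is worth up to 5.33 normalized counts and 1 to 59 reads stood behind each of the 8 genes. Of the 8 genes, 1 was called lower, and 0 were with a pseudocount of 10, a filter at a mean of 50 (which leaves only Ngfr tested), all libraries scaled to the same total, quantile normalization or the replicate block, against 0 to 3 when single libraries were left out. Over all genes, the 4830 lower and 17 higher calls became 0 and 0 with the pseudocount of 10, the filter of 50 and the same total (10626, 1253 and 9020 genes at an unadjusted P-value under 0.05), 2 and 0 with quantile normalization (3985), and 0 to 6698 and 0 to 25 without single libraries. Higher calls were 41 with a pseudocount of 0.1, 10 without a filter and 5 with voom. At an adjusted P-value under 0.05, calls were 7625 lower and 259 higher over all genes, and 29 of the listed genes were lower. The 17 calls among listed genes became 0 with the pseudocount of 10, the filter of 50, the same total, quantile normalization and the replicate block, and 0 to 32 without single libraries. The cause of these changes was not tested.

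Same-numbered libraries did not deviate together (correlations of 0.147, −0.0494 and −0.088), so the numbers do not pair samples. With the replicate block, 1 gene was called lower and 0 higher over all genes (8843 at an unadjusted P-value under 0.05), and the log2 fold change of Snap25 was −4.69 (limma adjusted P-value 0.0614), which is also its value without wt4. Snap25 kept its direction under all 15 alternatives and its call under 8, with adjusted P-values from 0.000708 to 0.249 (−2.01 with the pseudocount of 10, −2.29 with quantile normalization). Relative to the median of all genes it lay at −2.95 with the deposited scaling, −3.63 with the same total and −2.35 with quantile normalization. Stmn2 was at 1.22 with the same total and 1.08 with quantile normalization, turned sign with voom (−0.22) and ranged from −0.57 to 0.68 without single libraries, and Tubb3 turned sign with quantile normalization (0.32). Sox10, Mbp, S100b and Ngfr kept a negative log2 fold change and were called under none of the alternatives. The edgeR and DESeq2 fits and voom with TMM scaling were not run.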

Other observations

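The other Schwann cell and myelin genes with high values in the group labelled dyW were not high in the same libraries. The values of Fabp7, a lipid-binding protein of immature glia, were 0, 53.4 and 15.1 in dyW1, dyW2 and the library labelled dyW3, and those of Mal, a myelin membrane protein, were 0, 64.0 and 0. Gap43, a protein of growing axons and Schwann cells, was at 10.4, 109 and 0 in the same order, beside 10.7 to 27.0 in wt. In dyW2, Mbp (50.8) and Ngfr (56.7) had reads (402 for Mbp and 448 for Ngfr), while Erbb3, Snap25 and Tubb3 had none and Sox10 had 4. In dyW1, by contrast, Egr2 (243), Adgrg6 (466) and Cdh19 (70.6) were above every wt library, while Sox10, Erbb3 and Ngfr had no read. These genes were named after their values were seen, and their values are given as a description of single libraries.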
